A study of Mus musculus with 2 samples.

Results

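Csf1, Il34 and Csf1r are the 2 ligand genes and the receptor gene of 1 signalling axis, and they were followed here as 3 of the 32285 genes in each matrix. They were chosen by name. Their UMIs (unique molecular identifiers, each marking 1 captured transcript) were counted in every cell class of embryonic mouse skin, to read which cells could send and which could receive the signal. The samples were 1 Wntless mutant library and 1 wildtype library of dorsolateral and flank skin at stage E14.5, each pooled from 2 to 3 littermates of 1 genotype. Mutants came from a cross of K14Cre, which is driven by the keratin 14 promoter of epidermal keratinocytes, with a floxed (fl/fl) allele of Wntless (Wls), the gene needed for Wnt ligand secretion. The labels call the control genotype only wildtype, and do not say which of the alleles those embryos carried. The dermis itself is not targeted, so a dermal value compares fibroblasts beneath epidermis of the stated genotypes. Trypsin was used to free the cells, which were sorted with DAPI, and the 3' libraries of both genotypes shared a sequencing lane.

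Csf1 and Il34 are secreted cytokines that bind the same receptor tyrosine kinase, Csf1r, on cells of the macrophage lineage. Signalling through Csf1r keeps macrophages alive, lets them divide and drives their differentiation. In skin, Csf1 is known mainly as a mesenchymal product, whereas Il34 is known as the keratinocyte ligand on which Langerhans cells, the epidermal macrophages, depend.

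The mutant library held 10449 barcodes and 159841679 UMIs, and the wildtype library 9065 barcodes and 112593376 UMIs, with medians of 14602 and 11341 UMIs per barcode. The libraries shared 19 barcode sequences. The dermis was the authors' deposited list of dermal barcodes, 5028 mutant and 5300 wildtype cells, and the other classes were named from marker genes after clustering without the 3 genes. Wls was at 5.49 CPM in mutant and 131 CPM in wildtype epidermis (23 and 1050 UMIs). CPM is the gene's share of all UMIs in the class times 1000000. In the dermis Wls was at 77.0 CPM in mutant against 91.8 CPM in wildtype cells, a log2 ratio of -0.26 (-0.31 to -0.20). The cause of this dermal difference was not tested. All 17 macrophage markers, all 14 epidermal markers and all 10 fibroblast markers were above the other barcodes in their own class in both libraries. The macrophage and epidermal clusters were named from these same markers, so for them this is not a separate check. The dermal cells came from the authors' lists. With 1 library per genotype there was no replicate check and no test, so every interval below is a 95% interval for counting error only and differences between embryos are not covered.

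In GRCm38, Csf1 (ENSMUSG00000014599) lies on chromosome 3 from 107741048 to 107760469 on the minus strand and overlaps no other annotated gene. Il34 (ENSMUSG00000031750) lies on chromosome 8 from 110741829 to 110805924 on the minus strand, with the antisense genes Gm15894 and Gm15895 on the other strand. Csf1r (ENSMUSG00000024621) lies on chromosome 18 from 61100598 to 61132149 on the plus strand, with Mir6983 on the same strand and Hmgxb3 on the other. Whether counting used the strand is not given in the sources used here, so for Il34 and Csf1r reads from these neighbours cannot be told apart.

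Csf1 was mainly a dermal transcript in both libraries. The dermis held 1302 of 1822 Csf1 UMIs in the mutant library, or 71.5% (69.3 to 73.5%, Clopper-Pearson), and 718 of 967 in the wildtype library, or 74.3% (71.4 to 77.0%). Fibroblasts that clustered with the dermis but were not on the authors' lists held a further 12.4% and 9.72%. In the mutant dermis Csf1 was at 16.04 CPM (15.2 to 16.9), against 11.4 CPM (10.6 to 12.3) in the wildtype dermis, a log2 ratio of 0.49 (0.36 to 0.62). These intervals do not overlap, but the difference of 1.40-fold is below the 1.5-fold used for counts of genes here.

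**Figure D1:**
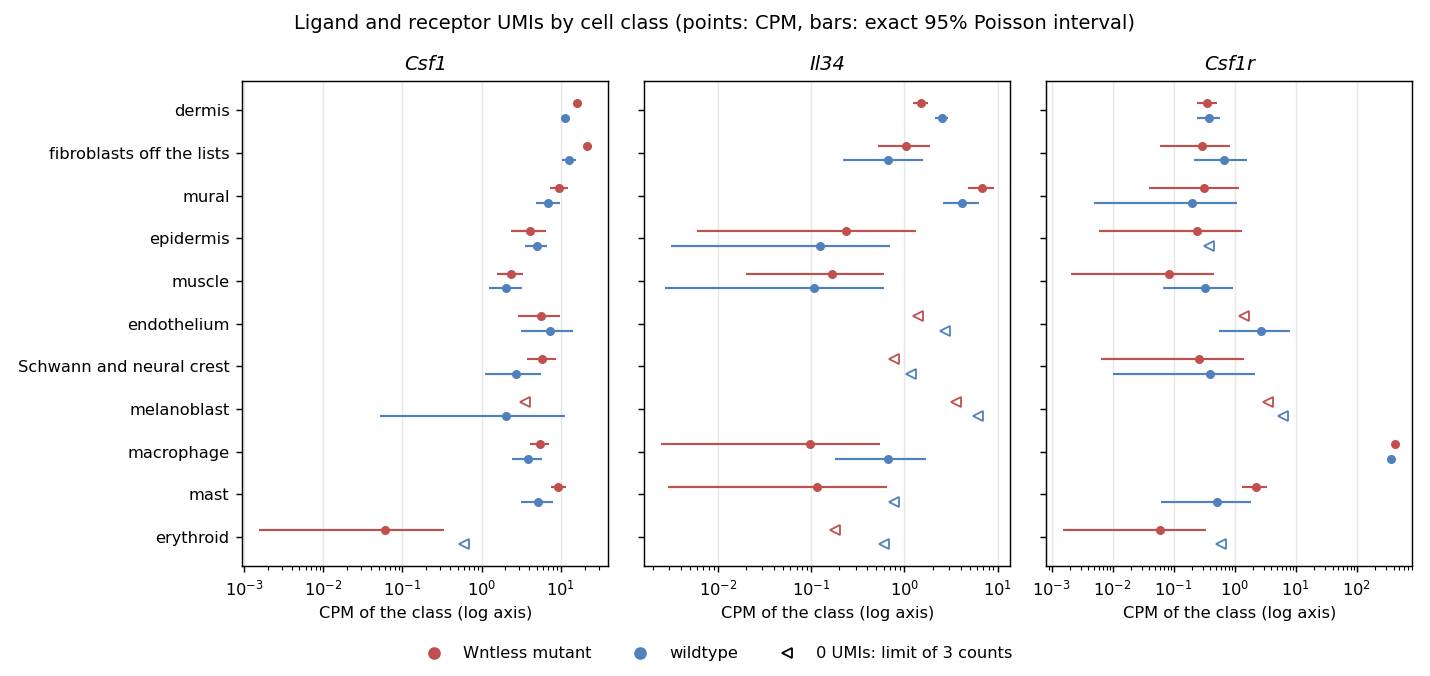
CPM of Csf1, Il34 and Csf1r (x axis, log scale) in 11 cell classes (rows), with the mutant library drawn above the wildtype library, exact 95% Poisson intervals as bars and open triangles for the limit of 3 counts where a class had 0 UMIs. Csf1 is highest in fibroblasts, at 16.04 and 11.4 CPM in the dermis, Il34 in mural cells, at 6.70 and 4.17 CPM, and Csf1r in macrophages, at 423 and 363 CPM.

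Counted as cells, 19.1% of mutant and 11.4% of wildtype dermal cells had a Csf1 UMI, at median depths of 15566 and 11154 UMIs. After each cell was thinned to 9000 UMIs, the shares were 11.97% (11.1 to 12.9%; 558 of 4661 cells) in the mutant and 8.83% (7.96 to 9.75%; 353 of 4000 cells) in the wildtype dermis, with 367 and 1300 shallower cells left out. Erythroid cells, which should lack Csf1, gave 1 of 1043 mutant cells (0.0959%) and 0 of 246 wildtype cells, a count that allows up to 1.22%, at median depths of 12107 and 8039 UMIs. Muscle cells gave 2.81% and 1.65% at median depths of 23660 and 17146 UMIs. The dermal shares therefore lay above the share seen in either of these classes. Most dermal cells with the gene had a single Csf1 UMI, 717 of 960 in the mutant and 509 of 606 in the wildtype library.

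Within the dermis Csf1 was higher in cells with more expression of lower dermal genes. Dermal cells were ranked by a score, the mean of 10 genes of upper dermis minus the mean of 12 genes of lower dermis, and divided into 3 zones of equal cell number over both libraries. Of the 10 upper genes, 5 are Wnt targets (Lef1, Dkk1, Axin2, Apcdd1 and Nkd1), so the genotype itself may shift the score of a cell, and a shift of the score cannot be told apart from a change in which cells were present. These zones are ranges of a score and not cell types, and 638 mutant and 484 wildtype cells lay within 0.1 of the upper boundary. In the lower zone Csf1 was at 28.8 CPM in mutant cells against 25.1 CPM in wildtype cells. In the upper zone it was at 5.50 CPM and 4.26 CPM. The upper zone was thus lower than the lower zone by a log2 ratio of -2.39 (-2.74 to -2.05) in the mutant and -2.56 (-2.86 to -2.27) in the wildtype library. After thinning, 20.8% of mutant and 18.8% of wildtype cells of the lower zone had a Csf1 UMI, against 4.67% and 3.16% of cells of the upper zone.

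Between genotypes, Csf1 did not differ in the same direction along this range. In the lower zone the log2 ratio, mutant over wildtype, was 0.20 (0.02 to 0.38). In the middle zone it was -0.51 (-0.77 to -0.25), from 8.88 CPM in mutant cells against 12.6 CPM in wildtype cells. In the upper zone it was 0.37 (-0.05 to 0.78). With the score divided into 10 steps, Csf1 was at 39.8 and 32.0 CPM in the lowest step, at 5.88 and 13.1 CPM in the sixth, and at 5.59 and 4.04 CPM in the ninth.

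The libraries placed different numbers of dermal cells along the score. The lower zone held 2034 mutant cells (40.5% of the dermis) and 1409 wildtype cells (26.6%), and the upper zone held 833 (16.6%) and 2610 (49.2%). With the 5 Wnt targets left out of the score, the upper zone held 21.2% of mutant and 44.9% of wildtype dermal cells and the lower zone 39.5% and 27.5%. When the zones were given equal weight in each library, the dermal log2 ratio of Csf1 was 0.040, and over the 9 steps with at least 20 cells of each library it was -0.051. Without the Wnt targets these values were 0.13 over the zones and 0.073 over the steps.

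The equal-weight value over dermal clusters turned on 1 cluster. Over the 6 clusters with at least 100 cells of each library it was -0.027, at means of 13.7 CPM in mutant cells against 14.0 CPM in wildtype cells. With cluster 11, of 91 mutant and 105 wildtype cells, the 7 clusters with at least 50 cells gave 0.37, at 18.8 CPM in mutant cells against 14.6 CPM in wildtype cells. With cluster 8 as well, which had 2 Csf1 UMIs in 46 mutant cells and 0 in 38 wildtype cells, the 8 clusters with at least 20 cells gave 0.49, the same as the pooled dermis. All these weightings were chosen after the data were seen. The equal-weight means over zones and steps thus differed less between genotypes than the pooled dermis. They average ratios of opposite direction, such as -0.51 in the middle zone and 0.37 in the upper zone. In the sixth step the log2 ratio was -1.16 (-1.68 to -0.63). The means therefore do not show that cells of the same zone or step were alike. For clusters the minimum number of cells decided the value.

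**Figure D2:**
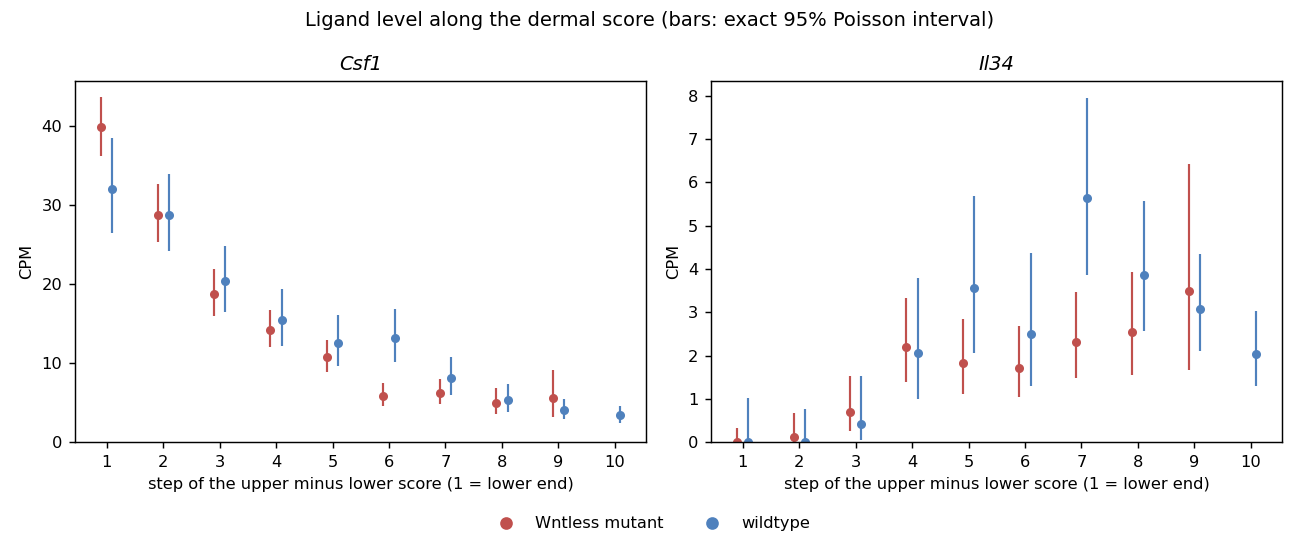
CPM of Csf1 and Il34 (y axes) in 10 steps of the upper minus lower dermal score (x axis, 1 is the lower end), with exact 95% Poisson intervals and the mutant point left of the wildtype point. The mutant point of the uppermost step is left out because it rests on 8 cells. Csf1 runs from 39.8 and 32.0 CPM at the lower end to 5.59 and 4.04 CPM in the ninth step, whereas Il34 has 0 UMIs in the lowest step of both libraries and reaches 5.63 CPM in the seventh wildtype step, against 2.32 CPM in the mutant one.

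The dermal clusters, which carry numbers and are described by their leading genes, gave the same order. Cluster 5, led by Mfap5 and Clec3b, had Csf1 at 36.3 CPM in 992 mutant cells and 32.6 CPM in 657 wildtype cells. Cluster 1, led by Aspn, Nppc and Angptl1, had 18.4 and 19.6 CPM. Cluster 2, led by Dkk1, Sfrp5, Crabp1 and Wif1, had 5.35 and 4.38 CPM. In these 3 clusters the intervals of the genotype ratio included 0.

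A pair of clusters did differ in opposite directions. In cluster 0, led by Rspo1 and Igfbp5, Csf1 was at 8.81 CPM in mutant cells against 12.7 CPM in wildtype cells, with a log2 ratio of -0.53 (-0.95 to -0.09). In cluster 11, led by Mfap5, Klf4 and Ly6a, listed cells had 49.5 CPM in mutant cells against 18.2 CPM in wildtype cells, with a log2 ratio of 1.45 (0.88 to 2.04) from 91 and 105 cells. Cluster 11 lay mostly off the authors' lists, and its median doublet score, 0.0703, was above the other clusters of listed cells. Off-list fibroblasts as a whole had Csf1 at 21.6 CPM in mutant cells against 12.7 CPM in wildtype cells, with a log2 ratio of 0.77 (0.41 to 1.13).

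Csf1 was low in dermal condensate cells, the fibroblast clusters under each forming hair follicle. The 300 wildtype cells with UMIs of at least 2 of 5 condensate genes had 2.51 CPM, against 11.9 CPM in the other wildtype dermal cells, a log2 ratio of -2.24 (-3.46 to -1.26) resting on 8 UMIs. Without them the dermal log2 ratio between genotypes was 0.43. Cluster 16, led by the condensate genes Foxd1, Sox18 and Gal and made of wildtype cells only, had 4 Csf1 UMIs in 223 listed cells, or 1.87 CPM.

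**Figure D3:**
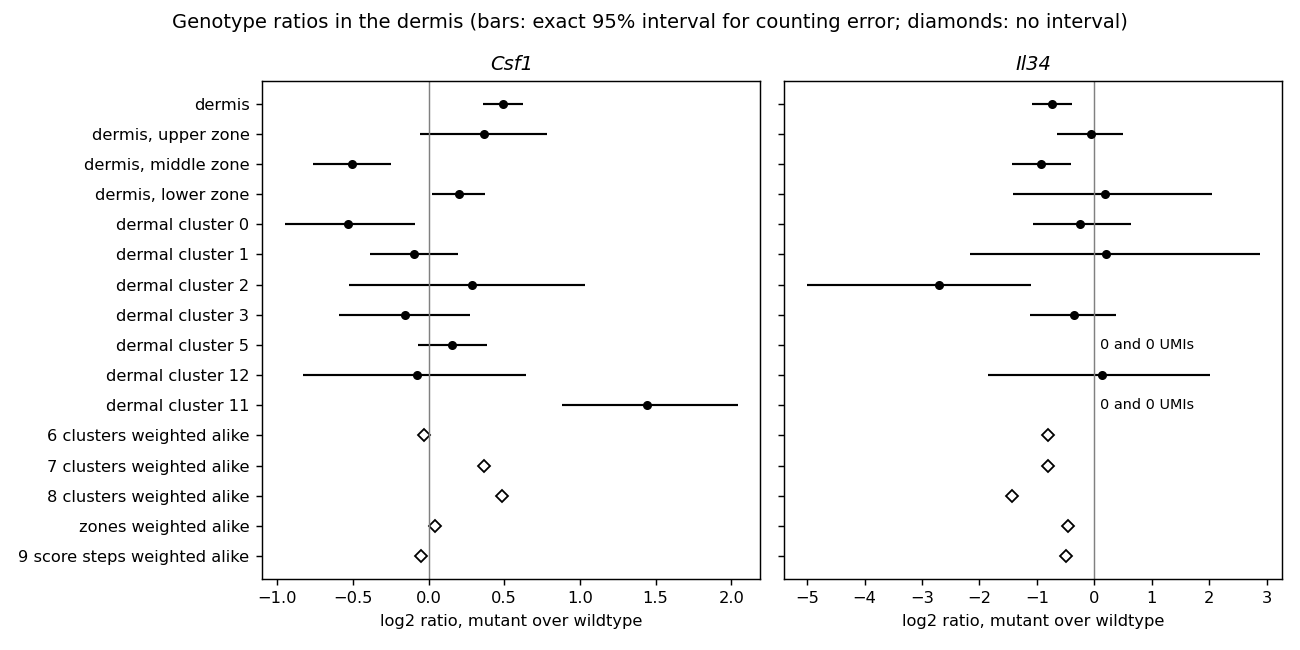
Log2 ratio, mutant over wildtype (x axis), of Csf1 and Il34 in the whole dermis, its zones and its clusters (rows), with exact 95% intervals for counting error, and open diamonds for equal-weight means, which have no interval. For Csf1 the whole dermis is at 0.49, the equal-weight means of zones and steps are at 0.040 and -0.051, and those of clusters are at -0.027 for 6 clusters, 0.37 for 7 and 0.49 for 8, whereas for Il34 the whole dermis is at -0.73 and the equal-weight means are between -1.44 and -0.45.

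Outside fibroblasts Csf1 was found in mural cells, the pericytes and smooth muscle cells of vessel walls. It was at 9.57 CPM in 222 mutant and 6.95 CPM in 226 wildtype mural cells, a log2 ratio of 0.46 (-0.16 to 1.11). With each cell thinned to 9000 UMIs it was 1.56, from 18 mutant and 6 wildtype UMIs. Endothelium had 5.65 and 7.22 CPM from 12 and 8 UMIs, and Schwann and neural crest cells had 5.88 and 2.75 CPM from 23 and 7 UMIs. For none of these did the interval of the genotype ratio exclude 0. Ranked by CPM, the mutant library ran from off-list fibroblasts through dermis, mural cells, mast cells, Schwann and neural crest cells, endothelium, macrophages, epidermis and muscle to erythroid cells. Intervals of neighbours in this order overlapped from mural cells to muscle. In the wildtype library all neighbours overlapped, from off-list fibroblasts and dermis at the top to muscle and melanoblasts at the bottom.

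In the epidermis Csf1 was at 4.06 CPM in 160 mutant cells and 4.99 CPM in 487 wildtype cells, from 17 and 40 UMIs, a log2 ratio of -0.30 (-1.21 to 0.55). Most of the wildtype UMIs were in placode cells, the keratinocytes of the follicle bud, here the cells with UMIs of at least 3 of 8 placode genes. The 220 wildtype placode cells had 8.37 CPM and the other wildtype epidermal cells 2.41 CPM, a log2 ratio of 1.79 (0.75 to 2.94) from 29 and 11 UMIs. The mutant library had 2 such cells. Without placode cells, epidermal Csf1 was at 3.89 CPM in mutant cells against 2.41 CPM in wildtype cells, with a log2 ratio of 0.69 (-0.51 to 1.94).

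Mast cells and macrophages held Csf1 UMIs in few cells. Mast cells had 81 UMIs in 33 of 233 mutant cells and 20 UMIs in 12 of 156 wildtype cells, at 9.35 and 5.15 CPM, a log2 ratio of 0.86 (0.14 to 1.65). Of the 81, 16 were in 1 cell, and without it the log2 ratio was 0.55 (-0.19 to 1.35). As a mean over cells it was -0.029. Macrophages had 56 and 23 UMIs, at 5.44 and 3.82 CPM, and 21 of the 56 were in 1 cell. Without that cell macrophage Csf1 was at 3.40 CPM in mutant cells against 3.82 CPM in wildtype cells, with a log2 ratio of -0.17 (-0.97 to 0.66).

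Il34, the other ligand, was sparse and was found in mural cells and in fibroblasts of the middle and upper dermal zones, with 1 UMI in the epidermis of each library. The dermis had 122 UMIs in the mutant and 157 in the wildtype library, at 1.503 CPM (1.25 to 1.79) and 2.50 CPM (2.12 to 2.92). The log2 ratio was -0.73 (-1.09 to -0.38), so Il34 was 1.66-fold lower in the mutant dermis. Of the 3 genes, all measured in the dermis with at least 20 UMIs, Il34 was thus the 1 at least 1.5-fold lower and none was higher, where 5.64% of the 15609 genes measured in the dermis were lower and 10.9% higher.

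The share of dermal cells with an Il34 UMI was 2.27% in the mutant and 2.64% in the wildtype library, and 1.27% (0.965 to 1.63%) and 2.15% (1.72 to 2.65%) after thinning. Erythroid cells, which should lack the gene, gave 0 of 1043 and 0 of 246 thinned cells, which allow up to 0.288% and 1.22%. Muscle cells gave 0.216% and 0.207%. The dermal shares were small but above those of muscle in both libraries.

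Along the dermal score Il34 was lowest at the end where Csf1 was highest. In the upper zone it was at 2.72 CPM in mutant cells against 2.83 CPM in wildtype cells, with a log2 ratio of -0.06 (-0.65 to 0.50). In the middle zone it was at 2.02 and 3.83 CPM, a log2 ratio of -0.92 (-1.43 to -0.41). In the lower zone it was at 0.381 and 0.334 CPM, from 12 and 5 UMIs. The middle zone held 72 of the 122 mutant and 63 of the 157 wildtype dermal UMIs, and the upper zone 38 and 89. The highest wildtype step was the seventh, at 5.63 CPM, above the uppermost step at 2.03 CPM. The upper zone was above the lower zone by a log2 ratio of 2.83 (1.87 to 3.91) in the mutant and 3.08 (1.81 to 4.74) in the wildtype library. With zones taken within each library these ratios were 3.97 and 1.58.

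Among the dermal clusters, the genotype ratio of Il34 excluded 0 only in cluster 2. Cluster 2, the Dkk1, Sfrp5 and Wif1 cells, had 3 Il34 UMIs in 252 mutant cells and 89 in 1589 wildtype cells, at 0.845 and 5.49 CPM, a log2 ratio of -2.70 (-5.01 to -1.11). Cluster 0, the Rspo1 and Igfbp5 cells, had 2.80 CPM in mutant cells against 3.35 CPM in wildtype cells, with a log2 ratio of -0.26 (-1.06 to 0.64). Cluster 3, led by histone genes of S phase, had 1.95 and 2.50 CPM. In cluster 5, where Csf1 was highest among the large clusters, Il34 had 0 UMIs in both libraries, and it also had 0 in condensate cluster 16.

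The dermal Il34 difference kept its direction at every equal weighting tried. Over the 6 clusters the log2 ratio was -0.81, from means of 1.24 CPM in mutant cells against 2.16 CPM in wildtype cells. With cluster 11 it was again -0.81, and with cluster 8, which had 0 mutant and 1 wildtype UMI, it was -1.44. With the 3 zones at equal weight it was -0.45, and with the 9 steps -0.50. Among the 6 clusters, cluster 2 differed most, at 0.845 CPM from 3 mutant UMIs against 5.49 CPM in wildtype cells. Clusters 0 and 3 had log2 ratios of -0.26 and -0.36, and clusters 1 and 12 of 0.20 and 0.14. Intervals of these ratios included 0. Cluster 5 had 0 UMIs in both libraries. Equal weighting of clusters without cluster 2 was not tried. Dermal cells rarely held both ligands: 15 mutant and 12 wildtype cells had a UMI of each, of 114 and 140 cells with an Il34 UMI.

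Mural cells had Il34 at 6.70 CPM (42 UMIs) in the mutant and 4.17 CPM (21 UMIs) in the wildtype library, with a log2 ratio of 0.69 (-0.10 to 1.52). That was above the dermis by a log2 ratio of 2.16 (1.61 to 2.67) in the mutant and 0.74 (0.01 to 1.40) in the wildtype library. Mural cells held 22.7% (16.9 to 29.4%) of mutant and 11.1% (6.97 to 16.4%) of wildtype Il34 UMIs, with 2.12% and 2.49% of the barcodes. After thinning, 4.98% of mutant and 4.61% of wildtype mural cells had an Il34 UMI.

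In the epidermis Il34 had 1 UMI in each library, at 0.239 CPM in the mutant against 0.125 CPM in the wildtype. After thinning, 0 of 154 mutant epidermal cells had one, which allows up to 1.95%, and 1 of 445 wildtype cells did (0.225%), a share like that of muscle. Epidermal Il34 was therefore not detectable above background at this depth and stage. Endothelium, Schwann and neural crest cells, melanoblasts and erythroid cells had 0 Il34 UMIs in both libraries, and macrophages had 1 in the mutant and 4 in the wildtype library.

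**Figure D4:**
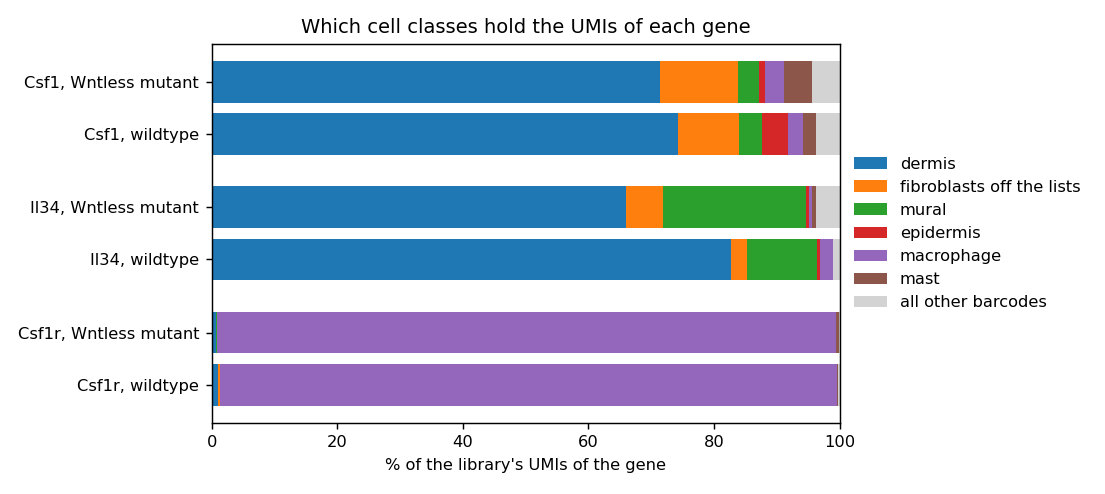
Share of each library's Csf1, Il34 and Csf1r UMIs (x axis, percent) held by each cell class (colours), with the mutant bar above the wildtype bar for each gene. The dermis holds 71.5% and 74.3% of Csf1, mural cells hold 22.7% and 11.1% of Il34, and macrophages hold 98.6% and 98.2% of Csf1r. These shares depend on how many cells of each class were captured.

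The receptor was almost wholly a macrophage transcript. Macrophages, 401 mutant and 338 wildtype cells or 3.84% and 3.73% of barcodes, held 4357 of 4418 Csf1r UMIs in the mutant library (98.6%) and 2186 of 2225 in the wildtype library (98.2%). A Csf1r UMI was present in 89.3% of mutant and 88.5% of wildtype macrophages, and in 87.5% (83.7 to 90.7%) and 86.0% (81.5 to 89.8%) after thinning. The median macrophage had 11 Csf1r UMIs in the mutant and 6 in the wildtype library, and 4 and 3 after thinning. Of the 43 mutant and 39 wildtype cells of the cluster without a Csf1r UMI, 37 and 32 also lacked any UMI of the 3 C1q genes, which encode complement subunits made by macrophages.

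Csf1r was at 423 CPM (411 to 436) in mutant and 363 CPM (348 to 379) in wildtype macrophages, a log2 ratio of 0.22 (0.15 to 0.30), or 1.17-fold. Neither Csf1r nor Csf1, the members measured in macrophages, was 1.5-fold higher or lower there, where 4.61% of 12031 genes were higher and 11.1% lower, with a median log2 ratio of -0.08 over all of them.

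Transcripts of other cell types moved with this difference. Epidermal markers summed to 16.6 CPM in mutant and 145 CPM in wildtype macrophages, and fibroblast markers to 1391 and 2408 CPM. UMIs of at least 3 of 6 keratinocyte genes were found in 0 mutant and 11 wildtype macrophages. Without those cells and the cells with at least 0.5% collagen UMIs, Csf1r was at 439 CPM in mutant cells against 412 CPM in wildtype cells, with a log2 ratio of 0.092. Leaving out the 76 mutant and 85 wildtype macrophages whose doublet scores ranked in the top 8% of their library, it was at 483 and 474 CPM, a log2 ratio of 0.027. The 1.17-fold difference was thus smaller without either set of cells. The interval of 0.15 to 0.30 covers neither of these ratios. Other ways of taking macrophages gave larger ratios, 0.41 with clusters at Leiden resolution 1.0 and 0.34 with cells taken by 4 of 6 markers. At resolution 1.0 the macrophages included an added cluster of 28 mutant and 96 wildtype cells. Its median doublet score was 0.199, against 0.0380 in the larger macrophage cluster. The part of these cells in the ratio of 0.41 was not tested.

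Macrophages also differed among themselves. Those with UMIs of at least 2 of 6 monocyte genes, 92 mutant and 58 wildtype cells, had Csf1r at 214 and 210 CPM, a genotype log2 ratio of 0.03 (-0.21 to 0.27). The others, 309 mutant and 280 wildtype cells, had 482 and 393 CPM. Cells with monocyte genes were thus lower by a log2 ratio of -1.17 (-1.31 to -1.03) in the mutant and -0.91 (-1.12 to -0.70) in the wildtype library. Cycling macrophages, with UMIs of at least 3 of 8 cell cycle genes, had 397 and 330 CPM, and the others 474 and 433 CPM. That is a log2 ratio, cycling over the others, of -0.26 (-0.35 to -0.17) in the mutant and -0.39 (-0.52 to -0.27) in the wildtype library. Both splits depend on detecting a UMI, so they also sort cells by depth.

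**Figure D5:**
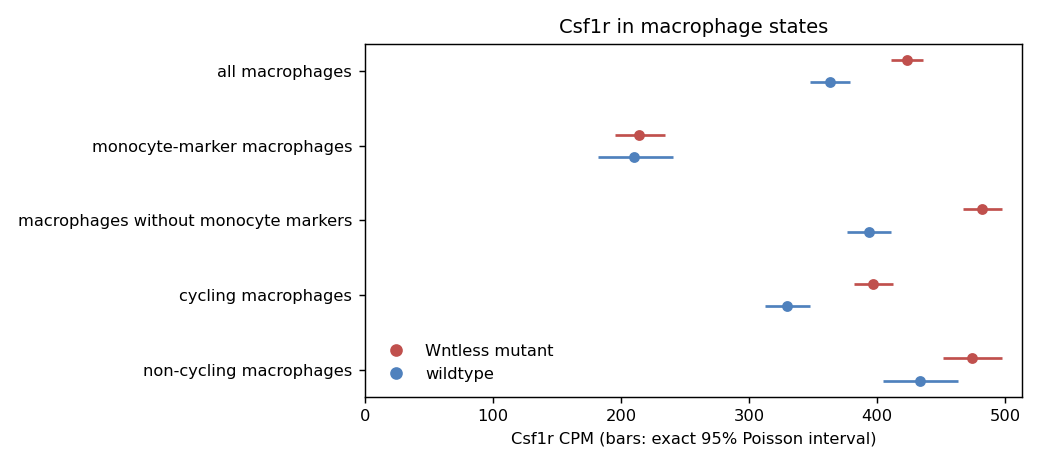
Csf1r CPM (x axis) in all macrophages and in 4 subsets (rows), mutant above wildtype, with exact 95% Poisson intervals. Macrophages with monocyte markers are lowest in both libraries, at 214 and 210 CPM, and those without them are at 482 and 393 CPM.

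Outside macrophages Csf1r was near 0. The dermis had 29 mutant and 24 wildtype UMIs, at 0.357 and 0.382 CPM, never more than 1 in a cell. None of the 29 mutant cells and 2 of the 24 wildtype cells also had a C1q UMI. Per 100 UMIs of the C1q genes, the dermis had 38.7 and 35.8 Csf1r UMIs, where macrophages had 16.9 and 18.0. As a share of Csf1r and C1q UMIs together, Csf1r made up 27.9% (19.5 to 37.5%) and 26.4% (17.7 to 36.7%) in the dermis, against 14.4% (14.0 to 14.8%) and 15.3% (14.7 to 15.9%) in macrophages. Of the dermal UMIs, the lower zone held 19 of 29 in the mutant and 9 of 24 in the wildtype library, and wildtype had 10 in the upper and 5 in the middle zone.

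Mast cells had 19 Csf1r UMIs in 9 of 233 mutant cells and 2 in 2 of 156 wildtype cells, at 2.19 and 0.515 CPM, with up to 5 UMIs in a mutant cell. Epidermis had 1 mutant and 0 wildtype UMIs, and endothelium 0 mutant and 3 wildtype UMIs, 2 of them in 1 cell. Melanoblasts had 0 in both libraries.

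Read as pairs, the main sender of Csf1 was the dermis, with the highest level in its lower zone, and the receiver was the macrophage, with dermal Csf1 at 16.04 CPM in mutant cells against 11.4 CPM in wildtype cells and macrophage Csf1r at 423 and 363 CPM. The senders of Il34 were mural cells and cells of the middle and upper dermal zones, with dermal Il34 at 1.503 and 2.50 CPM and mural Il34 at 6.70 and 4.17 CPM. UMIs of Csf1 and Csf1r in the same cell were counted in the dermis, mural cells, macrophages and mast cells. They occurred together in 30 of 31 mutant and 19 of 20 wildtype macrophages with a Csf1 UMI. Most macrophages had Csf1r, so this overlap was largely given. After thinning, 2.71% of mutant and 2.73% of wildtype macrophages had a Csf1 UMI, against 2.81% and 1.65% of muscle cells, with overlapping intervals. Both UMIs were also found in 7 mutant and 5 wildtype dermal cells, and in 6 mutant and 0 wildtype mast cells. These are transcripts, and how much ligand protein reaches a macrophage was not measured.

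The rest of the pathway was described with lists of genes, each counted at 1.5-fold among members with at least 20 UMIs over both libraries. The transducers of the receptor signal were counted in macrophages. Of all 12031 genes measured there, 4.61% were higher and 11.1% lower. Of 18 measured signalling genes, 0 were higher and 1 lower, with a median log2 ratio of 0.06 against -0.08 over all genes. The lower gene was Src, a kinase with 16 mutant and 24 wildtype UMIs. Inpp5d, a lipid phosphatase that restrains the signal, had a log2 ratio of 0.37 (0.18 to 0.56). The adaptor Grb2 was at 145 CPM in mutant cells against 141 CPM in wildtype cells.

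Transcription factors that regulate the Csf1r gene gave a like picture, with 0 of 9 higher or lower in macrophages. Over all genes measured there, 4.61% were higher and 11.1% lower. Spi1, which encodes the factor PU.1, had a log2 ratio of 0.21 (0.12 to 0.30) and Runx1 of 0.24 (0.10 to 0.39). The median of the 9 was 0.11. Csf1r itself was at 0.22, and the 17 macrophage markers had a median of 0.26 in the same cells. Of 12 genes known to respond to Csf1r signalling, 0 were higher and 1 was lower. That was Ccnd2, a cyclin of early cell cycle, at 49.1 CPM in mutant cells against 83.2 CPM in wildtype cells, with a log2 ratio of -0.76 (-0.94 to -0.58). Egr1, an immediate early transcription factor, had -0.37 (-0.45 to -0.29). Dusp1, which dephosphorylates MAP kinases, had 0.35 (0.25 to 0.46). Ccnd2 is also abundant in the dermis, at 441 and 407 CPM, and fibroblast markers were the higher ones in wildtype macrophages. The part of this in the macrophage value was not tested.

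Of 6 survival genes, 1 was higher in mutant macrophages and 0 lower, beside 4.61% and 11.1% of all measured genes. The higher survival gene was the Bcl2 relative Bcl2a1b, at 52.3 CPM against 29.6 CPM in wildtype, a log2 ratio of 0.82 (0.58 to 1.08). Mcl1, another survival factor, had 0.05 (-0.04 to 0.15). Among 8 genes of tissue macrophages 2 were higher and 0 lower. They were Cbr2, at 0.95 (0.56 to 1.35), and Timd4, a receptor for phosphatidylserine, at 0.86 (0.47 to 1.27). Mrc1, the mannose receptor, had 0.08 and Lyve1, the hyaluronan receptor, 0.09.

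Of 4 measured monocyte genes, 3 were higher in mutant macrophages and 0 lower, where 4.61% of 12031 measured genes were higher and 11.1% lower. Ly6c2 had 134 mutant and 8 wildtype UMIs, a log2 ratio of 3.29 (2.27 to 4.53), and Plac8 had 0.60 (0.47 to 0.73). Ccr2, the receptor that brings monocytes into tissue, had 0.38 (0.26 to 0.51). Markers of granulocytes and monocytes, a list that holds these 3 genes too, summed to 1024 CPM in mutant and 260 CPM in wildtype macrophages. Monocyte genes were present, by the definition above, in 22.9% of mutant and 17.2% of wildtype macrophages, at median depths of 24505 and 16044 UMIs. For this share, whether more monocytes were present, or were seen more often in the deeper library, cannot be told apart here. The CPM values and ratios above are scaled to the UMIs of the class, and the cause of their difference was not tested.

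In macrophages 4.61% of all measured genes were higher and 11.1% lower. Genes shared by Langerhans cells and microglia, the cells that depend on Il34 in adults, were measured there for 6 of 8 members. Of these, 1 was higher and 1 lower. The lower gene was Epcam, an epithelial adhesion gene also expressed by Langerhans cells, with 1 mutant and 85 wildtype UMIs, beside the keratinocyte genes of the 11 wildtype cells above. Cd207, which encodes langerin and defines Langerhans cells, had 0 UMIs in the macrophages of both libraries.

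Other growth factor receptors of myeloid cells were measured beside Csf1r. Of 13 measured members of that list, 1 was higher and 1 lower in macrophages, beside 4.61% and 11.1% of all measured genes. Csf3r, the receptor for granulocyte colony-stimulating factor, had 0.59 (0.09 to 1.11). Csf2ra and Csf2rb, the subunits of the receptor for granulocyte-macrophage colony-stimulating factor, had 0.46 (0.25 to 0.68) and 0.44 (0.22 to 0.66). Kit, the receptor of mast cells and melanoblasts, had -0.74 (-1.41 to -0.06) from 40 and 39 UMIs.

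Genes around the ligands were also counted in the dermis. Of 10 measured myeloid growth factor, chemokine and receptor genes, 3 were higher and 3 lower in the mutant dermis, where 10.9% of 15609 measured genes were higher and 5.64% lower. Cxcl12, a chemokine that retains blood-forming cells, was at 173 CPM in mutant cells against 84.9 CPM in wildtype cells, with a log2 ratio of 1.02 (0.98 to 1.07). Its receptor gene Cxcr4 was at 0.296 and 2.07 CPM, a log2 ratio of -2.81 (-3.50 to -2.17). Flt3l, a ligand of dendritic cell precursors, had 97 mutant and 45 wildtype UMIs and a log2 ratio of 0.74 (0.22 to 1.28). Kitl, the mast cell and melanoblast growth factor, had 0.38 (0.34 to 0.42).

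Of the ligand release and binding genes, 1 of 5 measured members was higher in the mutant dermis and 0 were lower, beside 10.9% and 5.64% of all measured genes. Adam17, the protease that sheds membrane-bound Csf1, was at 20.8 CPM in mutant cells against 21.3 CPM in wildtype cells, with a log2 ratio of -0.04 (-0.14 to 0.07). Ptprz1, a phosphatase that also binds Il34, was at 6.21 and 3.83 CPM, a log2 ratio of 0.70 (0.47 to 0.92). Sdc1, a syndecan that binds Il34, was at 40.6 and 59.7 CPM, a log2 ratio of -0.56 (-0.62 to -0.49).

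In the epidermis the same list had 1 of 5 measured members higher and 1 lower, where 7.75% of 11353 measured genes were higher and 14.9% lower. Ptprz1 was at 43.7 CPM in the mutant against 14.8 CPM in the wildtype epidermis, a log2 ratio of 1.56 (1.22 to 1.90). Sdc1 was at 54.2 and 46.6 CPM, with an interval that included 0.

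Runx1 and Maf, both known in macrophages, were also read in fibroblasts, where they differed by genotype. Runx1 was at 3.47 CPM in the mutant against 17.1 CPM in the wildtype dermis, a log2 ratio of -2.30 (-2.49 to -2.11). Maf, a transcription factor of macrophages and mesenchyme, was at 140 and 67.5 CPM. The 17 macrophage markers summed to 12.9 CPM in the mutant against 10.4 CPM in the wildtype dermis, against 14408 and 12924 CPM in macrophages. The higher mutant sum in the dermis came from Aif1, at 4.18 CPM in mutant cells against 1.30 CPM in wildtype cells, and the other 16 markers summed to 8.77 and 9.08 CPM.

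Genes whose levels across cell classes were most like each member were found by the Pearson correlation of log2(CPM + 10) over 20 profiles, 10 classes in 2 libraries. The profiles of 1 library share its depth and its free RNA, so these values describe likeness only. For Csf1 the closest of 14877 genes were St7 (0.94), Atp8b2 (0.92), Sec24d (0.91), Angptl4 (0.90) and Fmnl2 (0.89). For Il34 they were A4galt (0.97), Avpr1a (0.96), Tnmd (0.96), Pde3a (0.95) and Lamc3 (0.95), over an Il34 range of only 0.74 log2 units. For Csf1r they were Clec4a1, Ms4a6b, Il18, Clec4a2 and Ctss, each at a correlation of 0.999. The ligands resembled each other less, at 0.41.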

How the data were processed

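The authors deposited, for each library, a matrix of raw UMI counts and a list of dermal barcodes. Per the file headers, Cell Ranger 6.1.2 wrote the matrices. The submitters' processing notes name mm10 and Seurat. How dermal barcodes were chosen is not given in the sources used here. The deposited barcode and gene files hold other information, names only. Coordinates are from GENCODE mouse annotation on GRCm38, which held 32158 of 32285 identifiers.

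All barcodes were clustered jointly without the 3 genes in scanpy 1.11.5 (counts scaled to 10000, 2000 variable genes, 30 components, 15 neighbours) with Leiden clustering (leidenalg 0.10.2) at resolution 0.5. The 22 clusters were named by at least 3 markers among 50 leading genes, and mixed, shallow or mitochondrial clusters stayed unnamed, so shares differ with rebuilt names. Scrublet called 1 mutant barcode (0.00957%), so it did not work there, and 244 wildtype barcodes (2.69%). Doublets were kept, and the top 8% of scores (829 and 721 barcodes) were left out as an alternative.

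CPM has exact Poisson intervals, ratios exact conditional binomial intervals and shares Clopper-Pearson intervals, at 95%, and a count of 0 was set against 3 counts. UMIs are molecules, and intervals cover counting error only. For shares, cells were thinned to 9000 UMIs. Genes with at least 20 UMIs over both libraries counted as measured. The interval code was tested on simulated data. Named genes were the 3 members, the 5 most similar to each, and up to 4 per list with at least 50 UMIs and the largest ratio, and other genes were named after their values were seen. Some genes counted in the lists are not reported here by name. The members and lists were chosen with earlier results of these data known. Python 3.11.15, numpy 2.4.6, scipy 1.17.1, pandas 2.3.3 and matplotlib 3.10.9 were used.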

Additional observations from a re-analysis of the deposited data

Results flagged for a closer look

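Csf1 differed between genotypes in opposite directions in different cells, with intervals for counting error that excluded 0 on both sides. It was higher in the mutant library, as a log2 ratio, in the whole dermis (0.49), its lower zone (0.20), dermal cluster 11 (1.45), off-list fibroblasts (0.77) and mast cells (0.86). It was lower in dermal cluster 0 (-0.53) and in the middle zone of the dermal score (-0.51). The whole dermis holds the cells of its own parts, so these values are not independent. The differences between the ratios were not tested, since each genotype had 1 library.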

How the results depend on the processing

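No paired analysis was possible because each genotype had 1 library, and no replicate could be left out. In the dermis Csf1 changed sign with the 9 steps of the score weighted alike (-0.051) and was 0.040 with the 3 zones weighted alike. Without Wnt targets in the score these were 0.073 and 0.13. With clusters weighted alike it changed sign over the 6 with at least 100 cells of each library (-0.027), but was 0.37 with cluster 11 and 0.49 with cluster 8 as well. These weightings were added after the data were seen. Il34 in the dermis kept its sign in all 16 alternatives, from -1.44 over 8 clusters, where cluster 8 had 0 mutant and 1 wildtype UMI, to -0.45. Among the 6 clusters with at least 100 cells of each library, Il34 differed most in cluster 2, where mutant cells had 3 UMIs. Csf1 in mural cells was 1.56 in thinned cells. Csf1r in macrophages was 0.30 with median-of-ratios scaling, 0.027 without the top 8% of doublet scores and 0.092 without cells with keratinocyte genes or collagen. It was 0.34 with macrophages taken by 4 of 6 markers and 0.41 at Leiden resolution 1.0, where the added cluster had high doublet scores. With zones taken within each library, the Il34 ratio of upper over lower zone was 3.97 in the mutant and 1.58 in the wildtype library. Mast cell Csf1 changed sign as a mean over cells (-0.029). Scaling by median of ratios subtracted 0.03 from log2 ratios in the dermis, -0.08 in macrophages and -0.10 in the epidermis.

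Shares of cells with a UMI depend on depth. For dermal Csf1 they were 19.1% and 11.4% unthinned and 7.44% and 4.997% at 5000 UMIs, in mutant and wildtype. For dermal Il34 they were 2.27% in the mutant unthinned, and 0.910% and 1.01% at 5000 UMIs. For macrophage Csf1r they were 79.3% and 75.2% at 5000 UMIs, and 92.6% and 94.4% without the top 8% of doublet scores. Unless stated above the causes were not tested. Depth limits Il34 most, with 185 mutant and 190 wildtype UMIs in all cells.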
